A study of Bos taurus with 42 samples.

Results

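The RNAs described here are 5′ tRNA-halves, the fragments that run from the 5′ end of a tRNA into its anticodon loop. They were taken as the rows of a table of bovine small RNA sequences whose first annotation is a 5′ tRNA-half with a tRNA name, and were read by the amino acid and anticodon in that name. This gave 48 of 12345 rows, with 15 amino acids and 27 combinations of amino acid and anticodon. A further 16 rows of the same class carry Ensembl names in place of a tRNA name and were left out. The table pairs the rows with names and not with positions, so no coordinates are given.

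A tRNA-half arises when an endonuclease, angiogenin in mammalian cells under stress, cuts a mature tRNA in the loop that holds the anticodon. In human cells 5′ tRNA-halves of alanine and cysteine tRNAs have been found to lower translation, and in mouse those of glycine, glutamate and valine tRNAs are abundant in sperm. Methylation by DNMT2, known in mouse for AspGTC, GlyGCC and ValAAC tRNAs, protects the anticodon loop from cleavage.

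The 42 libraries hold the small RNA fraction of cattle oocytes, embryos and cells, sequenced on an Ion Proton, in 12 groups. Embryos came from somatic cell nuclear transfer (NT, cloning) or from in vitro fertilisation (IVF). They were collected as 2-cell embryos on day 2 (4 NT and 4 IVF libraries), 8-cell embryos on day 3 (4 NT and 3 IVF), morulae on day 6 (3 NT and 4 IVF) and blastocysts on day 8 (4 NT and 3 IVF). Cells grown from blastocysts (3 NT and 4 IVF libraries), bovine fibroblasts (3) and metaphase II oocytes (3) complete the series. An embryo library is a pool of 20 embryos, and the labels give 3 pools per stage in one place and 4 in another. NT embryos were made with serum-starved fibroblasts of an early passage from an ear biopsy of a Brahma Spanish cross bull, and IVF embryos with semen of a Holstein bull. The way of making an embryo and its nuclear genotype therefore cannot be told apart. Both kinds were cultured on monolayers of bovine cumulus cells. No label says that the pools of a group came from separate cultures, so p-values measure only the spread between these libraries, which may be technical.

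Reads listed in the table ranged from 25119 (IVF morula replicate 3) to 3081186 per library, with a median of 608571.5. Reads of 5′ tRNA-halves ranged from 1058 (oocyte replicate 1) to 320746, with a median of 44932.5. Since reads are not independent molecules, intervals and floors cover counting error only. piRNA rows held 88.1% to 91.5% of the oocyte reads and 0.300% to 0.895% of the fibroblast reads. The 5 miRNAs used as fibroblast markers all had rows and together held 1779.8 to 38122 CPM (counts scaled to 1e6 listed reads) in fibroblasts, 18206 to 33725 and 13722 to 50226 CPM in NT and IVF blastocyst-derived cells, 76.3 to 259.6 and 168 to 282 CPM in NT and IVF blastocysts, and 14.0 to 68.5 CPM in oocytes. Of 5 epithelial markers 2 had rows, which were at 0 in IVF blastocyst-derived cell replicate 2 and at 6005 to 15418 CPM in the other 3 libraries of that group. The 1 of 4 cumulus markers with a row, miR-202, had 19169 CPM in fibroblast replicate 3, against 140.2 to 763 CPM in oocytes. IVF morula replicate 1 stood apart, with 0.143% piRNA reads and 16228 CPM of fibroblast markers and 9157 CPM of epithelial markers, which stood at 0 to 0.694 CPM in fibroblasts, as did IVF morula replicate 3, with 423 of the 12345 sequences. NT 2-cell replicate 4 holds every row of the table, so sequences found in other libraries alone are not listed.

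A row can stand for several tRNAs. A single tRNA is named in 17 of the 48 rows, 2 tRNAs in 4 rows and 3, the most that any of them lists, in 27. The named anticodons differ within 7 rows, among them the row led by GlyCCC trna848, which also names GlyGCC, and the row led by ValAAC trna8133, which also names ValCAC. In 1 row, led by AlaCGC trna8663 and also naming GlyGCC, the amino acids differ too. Rows are called here by the first tRNA named, with a row number where 1 tRNA leads several. Valine and lysine have 8 rows each, glycine and glutamate 5 each, alanine 4, aspartate, glutamine and serine 3 each, methionine and arginine 2 each, and proline, cysteine, histidine, leucine and selenocysteine, written SeC(e), 1 each. Asparagine (12 rows), isoleucine (4), phenylalanine (7), threonine (18), tryptophan (4) and tyrosine (12) have rows for other tRNA fragments and none among the 48.

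Glycine tRNA-halves were the most abundant. Averaged over the 42 libraries, glycine gave 57.2% of the tRNA-half reads, valine 14.2%, lysine 12.8%, methionine 6.00%, glutamate 5.95% and proline 1.91%. Alanine gave 0.664%, aspartate 0.601% and cysteine 0.312%, and each other amino acid under 0.1%. A few rows carried most of these reads. GlyCCC trna848 held 26.5% on average, GlyGCC trna9190 20.9%, ValAAC trna8133 10.98%, GlyCCC trna6425 8.31% and LysTTT trna6767 row 1 7.23%. The 5 most abundant rows of a library held 62.6% to 93.9% of its tRNA-half reads, with a median of 77.4%. Of the 48 rows, 14 were found in all 42 libraries, as were 116 of all 12345 rows. At the other end, AspGTC trna9195 had 10 reads, spread over 4 libraries.

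The share of 5′ tRNA-halves among all listed reads differed widely between groups. It averaged 1.01% ± 1.33 in oocytes (SD, n = 3), 1.94% ± 2.34 in NT and 2.94% ± 3.28 in IVF 2-cell embryos (n = 4 each), and 4.60% ± 3.47 in NT (n = 4) and 11.9% ± 5.19 in IVF 8-cell embryos (n = 3). Morulae held 13.9% ± 10.9 in NT (n = 3) and 7.74% ± 4.97 in IVF (n = 4), and blastocysts 25.0% ± 4.58 in NT (n = 4) and 28.9% ± 10.6 in IVF (n = 3). The share was 12.1% ± 2.73 in NT (n = 3) and 6.48% ± 2.73 in IVF blastocyst-derived cells (n = 4), and 3.22% ± 2.10 in fibroblasts (n = 3). All 7 blastocyst libraries lay above all 3 oocyte libraries. In bulk samples such as these, fewer cells of a type and less RNA per cell cannot be told apart. The piRNA share was lower in blastocysts, at 13.8% to 29.8% in NT and 20.8% to 32.2% in IVF, than in oocytes, at 88.1% to 91.5%. Its part in the higher tRNA-half share of blastocysts was not tested.

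Oocyte replicate 4 differed from oocyte replicates 1 and 3. It held 12709 tRNA-half reads, against 1058 and 1119. 5′ tRNA-halves were 40.3% of its tRNA-derived reads, against 7.55% and 6.78%. GlyGCC trna9190 had 27308 normalised reads in it (reads divided by the library's size factor), against 1228 and 1671.

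**Figure D1:**
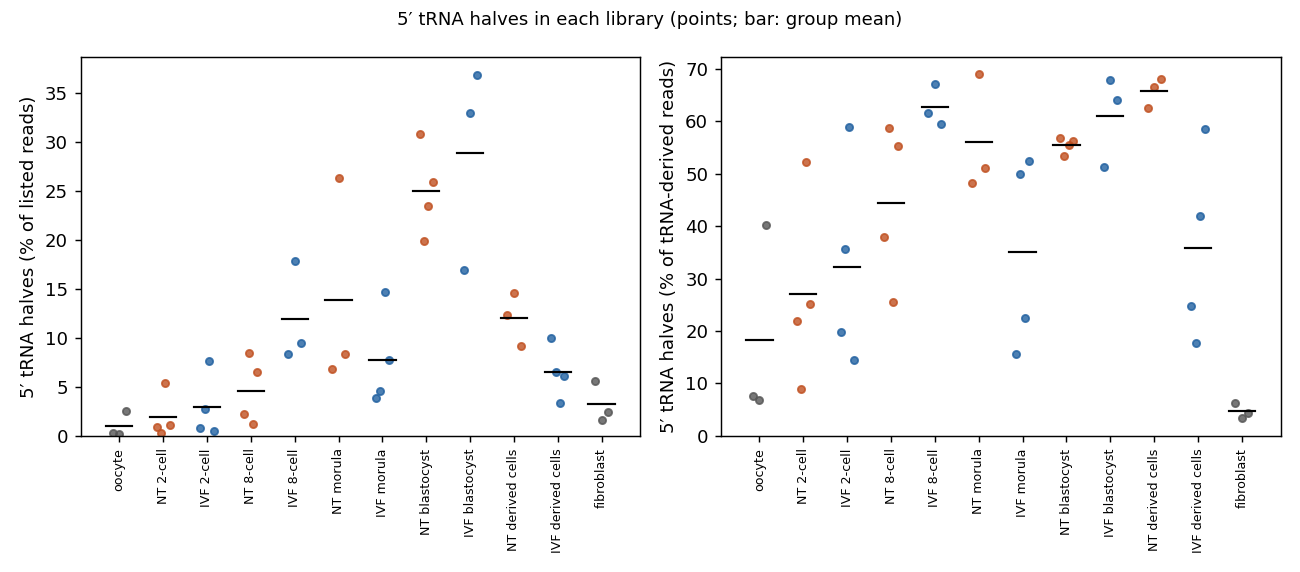
5′ tRNA-halves in each library (points; the bar is the group mean) as a percentage of all listed reads (left) and of tRNA-derived reads (right), for the 12 groups, NT in orange and IVF in blue. Blastocysts hold 19.9% to 30.8% (NT) and 16.9% to 36.9% (IVF) of listed reads, against 0.221% to 2.55% in oocytes, of which 1 library stands at 40.3% of tRNA-derived reads.

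The first comparison sets the blastocyst against the oocyte, between which the embryo replaces maternal RNA with its own. Most 5′ tRNA-halves were called higher, 7 of 8 valine rows in NT and 8 of 8 in IVF among them. The most abundant rows of glycine and methionine did not pass the test. Levels were compared on the deposited variance-stabilised log2 scale with limma over 12039 rows, 47 of them 5′ tRNA-halves, with AspGTC trna9195 too rare to be tested, at a Benjamini-Hochberg adjusted p under 0.05. In NT blastocysts 32 of 47 were higher than in oocytes and 0 lower, where 1.91% of all rows were called higher and 38.5% lower. In IVF blastocysts 34 of 47 were higher and 0 lower, where 1.49% of all rows were called higher and 33.9% lower. The comparisons share the 3 oocyte libraries. The median change of the 47 rows was 3.21 in NT and 3.48 in IVF blastocysts, beside -0.87 and -0.86 over all rows. Of the 47 rows, 18 were at 0 in every oocyte library, 10 of them called in NT and 12 called in IVF. For these rows a lower bound was taken against a floor of 3 reads in each oocyte library. Where the blastocyst mean did not exceed that floor, for 11 of the 18 in NT and 10 in IVF, the change was set to 0. The median change of the 47 rows was then 2.47 in NT and 2.91 in IVF. Without oocyte replicate 4, 32 were higher in NT and 31 in IVF, with 1.52% and 1.28% of all rows.

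All 8 valine rows were called higher in IVF blastocysts and 7 of 8 in NT blastocysts. Among these calls, ValAAC trna4967 in IVF and ValTAC trna3277 row 2 in NT had blastocyst means under the oocyte floor. Both were at 0 in every oocyte library, so no rise can be read from them. ValTAC trna1469 had 1221, 717, 652 and 435 normalised reads in NT blastocysts and 338, 764 and 521 in IVF blastocysts, against 0 in each oocyte library. With 3 reads in each oocyte library as the floor, on average 13.4 normalised reads, it was at least 56.2-fold higher in NT and at least 40.2-fold higher in IVF blastocysts. Its fitted log2 change, which depends on how a zero is transformed and is no bound, was 8.11 ± 1.00 (SE) in NT (limma, adjusted p = 2.13e-09) and 7.65 ± 1.07 in IVF (adjusted p = 7.93e-08). The most abundant valine row, ValAAC trna8133, had 15572, 5245, 8161 and 6005 normalised reads in NT blastocysts and 6184, 27926 and 24659 in IVF blastocysts, against 151, 157 and 443 in oocytes. No blastocyst library overlaps an oocyte library. The log2 change was 5.15 ± 1.40 in NT (limma, adjusted p = 0.00175) and 6.17 ± 1.497 in IVF (adjusted p = 0.000591).

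The other valine rows were scarcer. ValTAC trna3277 row 1 had 3784, 1620.2, 1597 and 1213 normalised reads in NT and 1344, 2204 and 2036 in IVF blastocysts, against 20.1, 9.80 and 38.7 in oocytes. It changed by 6.21 in NT and 6.18 in IVF, and ValTAC trna4963 by 5.21 and 5.25, on the log2 scale. The ValCAC row trna1084 had 59.2, 40.5, 50.8 and 37.1 in NT and 35.7, 145 and 124 in IVF blastocysts, against 0, 0 and 10.5 in oocytes, and changed by 3.46 ± 0.90 in NT (limma, adjusted p = 0.00107) and 4.31 ± 0.96 in IVF (adjusted p = 0.000206).

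Of the 8 lysine rows, 6 were called higher in each kind of blastocyst. Among them, LysTTT trna1430 row 2 was at 0 in every oocyte library, with an IVF mean under the oocyte floor. The LysTTT tRNA is known as the primer of HIV-1 reverse transcription. LysTTT trna1458 had 573, 324, 487 and 498 normalised reads in NT blastocysts and 362, 571 and 341 in IVF blastocysts, against 0 in each oocyte library, so it was at least 35.0-fold higher in NT and at least 31.6-fold higher in IVF. LysTTT trna1430 row 1 changed by 5.91 ± 1.05 in NT (limma, adjusted p = 3.29e-06) and 6.43 ± 1.12 in IVF (adjusted p = 4.26e-06), and the abundant LysTTT trna6767 row 1 by 4.17 and 4.32. LysTTT trna6767 rows 2 and 3, with 203 and 60 reads over all libraries, passed in neither.

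Glutamate had 4 of 5 rows higher in each kind of blastocyst. GluTTC trna8654 changed by 4.84 ± 1.03 in NT (limma, adjusted p = 7.43e-05) and 6.47 ± 1.10 in IVF (adjusted p = 2.92e-06). The leading row, GluTTC trna5944, had 4461, 3866, 4843 and 2827 normalised reads in NT and 2809, 3886 and 7855 in IVF blastocysts, against 126, 157 and 492 in oocytes, with no overlap. GluCTC trna3318 was at 0 in oocytes and at least 7.54-fold higher in IVF blastocysts. In NT blastocysts its mean was 1.43-fold the oocyte floor, but some NT libraries lay under that floor, so this is no bound for the group.

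Glycine rows did not all pass. GlyCCC trna848 had 14647, 13805, 8589 and 8356 normalised reads in NT blastocysts and 9896, 21571 and 33949.9 in IVF blastocysts, against 2209.7, 1838 and 10755 in oocytes, where replicate 4 overlaps both blastocyst groups. Its log2 change was 1.64 ± 1.496 in NT (limma, adjusted p = 0.418) and 2.46 ± 1.60 in IVF (adjusted p = 0.246). GlyGCC trna9190 had 7426, 7698, 7676 and 4863 in NT and 7652, 13176 and 11737 in IVF blastocysts, against 1228, 1671 and 27308 in oocytes, and had a log2 change of 0.83 ± 1.43 in NT (limma, adjusted p = 0.772) and 1.46 ± 1.52 in IVF (adjusted p = 0.51). GlyCCC trna6425, GlyTCC trna868 and GlyTCC trna7895 passed in both, with GlyCCC trna6425 changing by 3.89 and 4.44 and GlyTCC trna868 by 3.84 and 2.80.

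The anticodon CAT serves both the initiator and the elongator methionine tRNA. MetCAT trna8729 had 2273, 1375, 1685 and 2352 normalised reads in NT and 1737, 3413 and 5125 in IVF blastocysts, against 221, 348 and 2774 in oocytes, and its log2 change was 1.63 ± 1.21 in NT (limma, adjusted p = 0.295) and 2.37 ± 1.29 in IVF (adjusted p = 0.159). MetCAT trna1488 had a log2 change of 2.45 ± 1.05 in NT (limma, adjusted p = 0.0534) and 3.14 ± 1.12 in IVF (adjusted p = 0.0221). Like MetCAT trna1488, the rows AlaCGC trna8663, ValAAC trna4967 and SerCGA trna8206 passed in IVF and not in NT, while CysGCA trna4850 and ArgTCT trna3496 passed in NT and not in IVF. For none of these 6 did the test between NT and IVF blastocysts pass. AlaCGC trna8663, ValAAC trna4967, SerCGA trna8206 and ArgTCT trna3496 were at 0 in every oocyte library. AlaCGC trna8663 had 0, 12 and 64 reads in the IVF blastocyst libraries. Its mean there was 1.04-fold the oocyte floor, and with a library at 0 this is no bound for the group. The blastocyst means of the other rows at 0 did not exceed the oocyte floor where they passed, so no fold is given for them.

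Among amino acids with fewer rows, alanine had 3 of 4 rows higher in NT and 4 of 4 in IVF blastocysts, glutamine 2 of 3 and 2 of 3, serine 1 of 3 and 2 of 3, and arginine 2 of 2 and 1 of 2. The leading rows changed, in NT and IVF in that order, by 3.61 and 4.51 for AlaAGC trna3539, 4.71 and 4.96 for GlnCTG trna7898, 2.29 and 2.45 for SerTGA trna1492, and 3.30 and 5.24 for ArgCCG trna2612. The GlnCTG, SerTGA and ArgCCG rows were at 0 in every oocyte library, so their changes depend on how a zero is transformed. The mean of SerTGA trna1492 exceeded the oocyte floor in neither kind of blastocyst. The single rows of proline, histidine and leucine passed in both as well, ProCGG trna96 with 3.50 and 4.56, HisGTG trna864 with 2.47 and 4.05, and LeuAAG trna3387 with 3.48 and 3.45. The tested aspartate rows and the selenocysteine row passed in neither. AspGTC trna2281 had 250.1, 649, 529 and 175 normalised reads in NT and 377, 122 and 146 in IVF blastocysts, against 131, 230.3 and 94.9 in oocytes, and had a log2 change of 1.27 ± 0.85 in NT (limma, adjusted p = 0.246) and 0.40 ± 0.91 in IVF (adjusted p = 0.884). SeC(e)TCA trna3854 had a log2 change of 0.06 in NT and -0.50 in IVF. Of the rows not named so far in this comparison, AspGTC trna2388, GlnCTG trna8637, GluTTC trna778, SerGCT trna1447 and LysTTT trna1430 row 2 had log2 changes of 0.97, 0.24, 0.18, 0.65 and 3.43 in NT, and LysTTT trna1430 row 2 alone of these passed there and also in IVF. The remaining 8 rows, ValAAC trna1480, ValTAC trna3277 row 2, LysCTT trna95, LysCTT trna5639, GluTTC trna10590, AlaAGC trna1481, AlaTGC trna2033 and GlnTTG trna4932, passed in both kinds, with changes of 2.59 to 4.69 in NT and 2.88 to 5.79 in IVF. LysTTT trna1430 row 2, ValTAC trna3277 row 2, GlnTTG trna4932, GlnCTG trna8637, GluTTC trna778 and SerGCT trna1447 were at 0 in every oocyte library. Their changes depend on how a zero is transformed. The mean of LysTTT trna1430 row 2 in IVF and that of ValTAC trna3277 row 2 in NT did not exceed the oocyte floor.

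**Figure D2:**
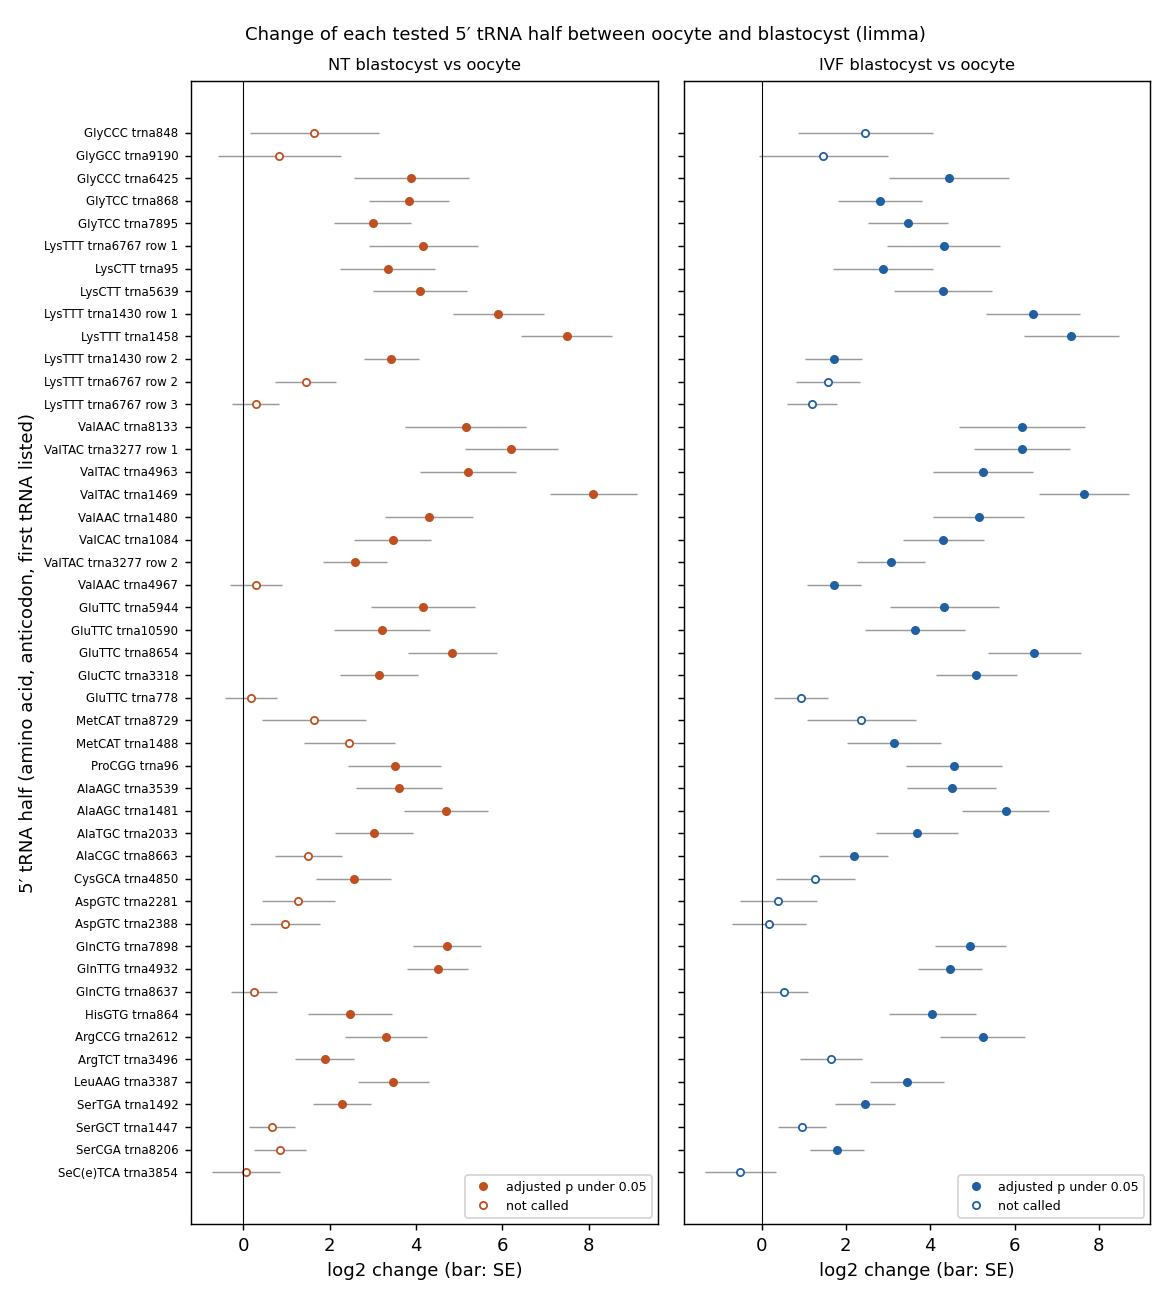
Log2 change (x axis, limma; bar, SE) of each of the 47 tested 5′ tRNA-halves (down the page) in NT and in IVF blastocysts, each against oocytes; filled points have an adjusted p under 0.05. There are 32 filled points in NT and 34 in IVF, ValTAC trna1469 lies farthest right, and GlyCCC trna848 and GlyGCC trna9190 are open.

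No 5′ tRNA-half was called lower under any scaling tried, while the median over all rows moved. With CPM of listed reads, 41 were higher in NT and 42 in IVF blastocysts (5.57% and 4.14% of all rows), with CPM of tRNA-derived reads 34 and 33 (12% and 9.06% of the tRNA-derived rows), and with voom on the recovered reads 42 and 43 (7.5% and 5.95% of all rows). The all-row median was -0.77 and -0.77, -0.67 and -1.17, and 0.12 and 0.20.

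Other tRNA fragments moved in both directions. Of 83 tested short 5′ fragments, 9 were higher and 14 lower in NT blastocysts, and 11 higher and 13 lower in IVF blastocysts, than in oocytes. Of 27 tested 3′ tRNA-halves, 4 were higher and 0 lower in NT, and 1 higher and 1 lower in IVF. Of 308 fragments of precursor trailers (tRF-1), 7 were higher and 159 lower in NT, and 6 higher and 145 lower in IVF. The difference between these classes was not tested.

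Shares of one amino acid within the tRNA-half reads do not depend on size factors. Glycine made up 41.2% ± 6.29 of these reads in NT blastocysts (n = 4) and 45.0% ± 4.94 in IVF blastocysts (n = 3), against 75.9% ± 9.28 in oocytes (n = 3). Valine made up 21.2% ± 5.31 in NT and 24.6% ± 7.17 in IVF blastocysts, against 2.74% ± 1.30 in oocytes. Glutamate made up 9.63% ± 1.97 in NT and 8.13% ± 1.74 in IVF blastocysts, against 3.61% ± 1.79 in oocytes. For these amino acids no blastocyst library overlaps an oocyte library. In two-sided exact permutation tests over libraries, p was 0.0286 for each of them in NT, the smallest that 35 splits allow, with an adjusted p of 0.114 over 12 tests, and 0.1 in IVF, the smallest that 20 splits allow, with an adjusted p of 0.12. Lysine made up 19.6% ± 4.91 in NT and 13.1% ± 1.16 in IVF blastocysts, against 7.12% ± 3.71 in oocytes (exact permutation p = 0.0571 and 0.1). None of the 12 tests passed, and with these numbers of libraries none of them, in NT or in IVF, could have reached an adjusted p under 0.05 at any effect size.

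Over the stages, the mean valine share was 18.9% in NT and 16.1% in IVF 2-cell embryos, 13.0% and 22.0% in 8-cell embryos, 22.4% and 11.4% in morulae, and 6.18% and 6.47% in blastocyst-derived cells. It was 5.22% in fibroblasts, with 7.59, 4.89 and 3.17% by library, and the oocyte libraries held 3.59, 3.40 and 1.24%. All embryo libraries other than IVF morula replicates 1 and 3 held 9.35% to 32.5%, above every oocyte and fibroblast library, while blastocyst-derived cells reached 9.25%. IVF morula replicate 1 held 4.36%, and IVF morula replicate 3 held 0.243% of its 3701 tRNA-half reads (95% Wilson interval 0.128% to 0.462%).

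Other amino acids had their highest group means elsewhere. Methionine was highest in fibroblasts, at 12.6% ± 6.10, with 5.65, 17.1 and 15.0% by library. Cysteine was highest in NT blastocyst-derived cells, at 1.06% ± 0.517, with 0.736% ± 0.324 in IVF derived cells and group means of at most 0.335% in embryos. Lysine was also highest in NT blastocyst-derived cells, at 23.5% ± 6.79, with 15.0% ± 6.996 in IVF derived cells. Aspartate was highest in oocytes, with 2.46, 4.56 and 0.291% in replicates 1, 3 and 4. Proline stood at 15.5% in IVF morula replicate 3, the library with the fewest listed reads, and at most at 4.28% in the other 41 libraries.

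**Figure D3:**
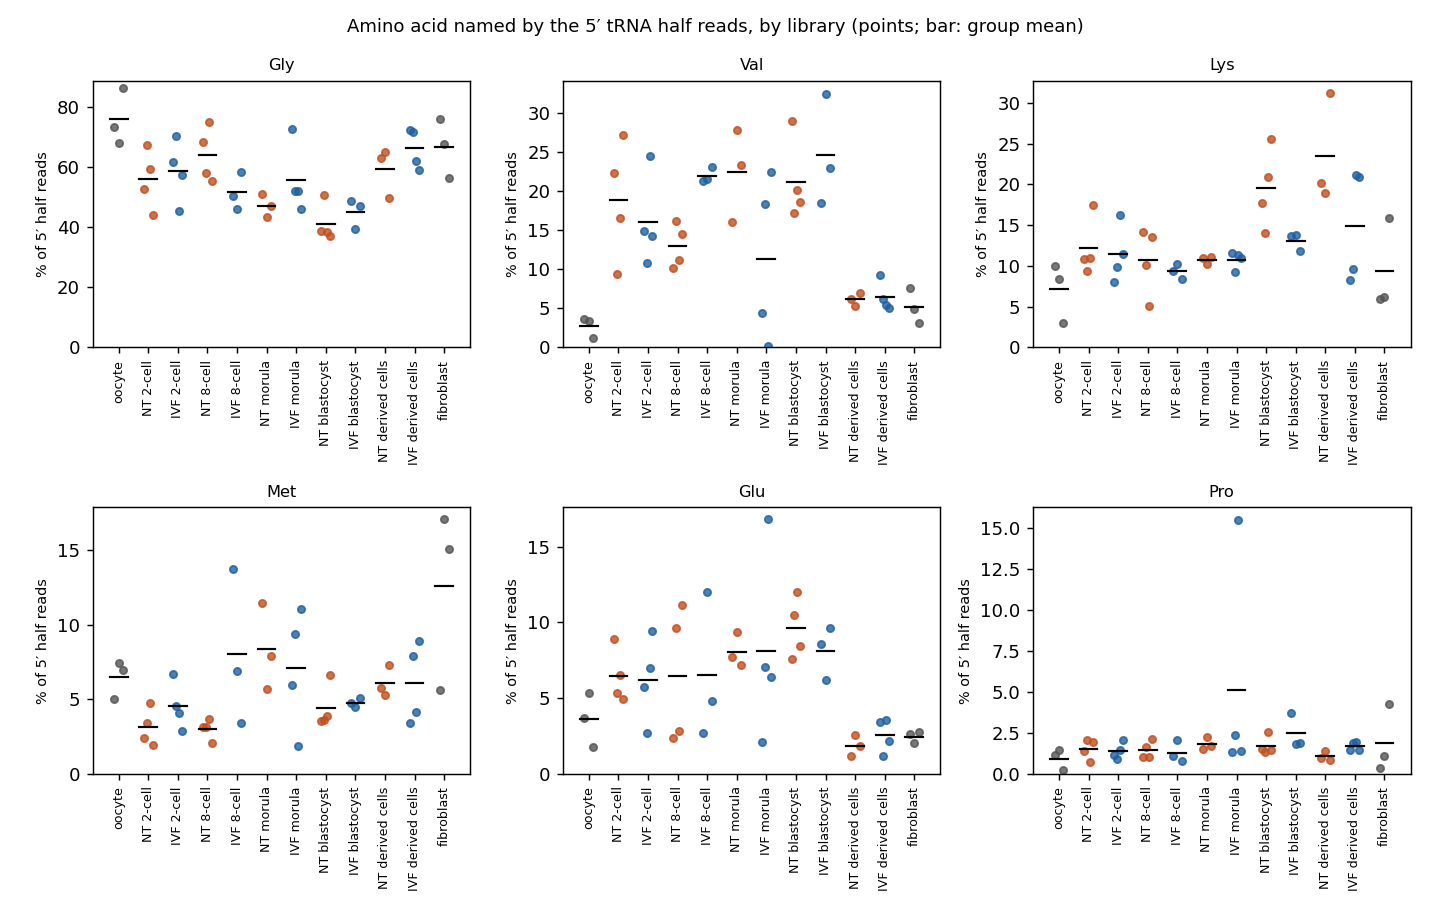
Share of the 5′ tRNA-half reads that each of the 6 most abundant amino acids holds, by library (points; the bar is the group mean; NT in orange, IVF in blue, others in grey). Glycine averages 41.2% in NT and 45.0% in IVF blastocysts, against 75.9% in oocytes, and valine 21.2% and 24.6%, against 2.74%.

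Within one amino acid the rows did not keep fixed proportions. GlyGCC trna9190 held 29.3% ± 4.65 of the glycine tRNA-half reads in NT and 28.7% ± 7.87 in IVF blastocysts, against 49.0% ± 20.1 in oocytes, while fibroblasts had 23.4% ± 9.03. GlyTCC trna868 held 0.125% to 0.1502% in NT and 0.0480% to 0.186% in IVF 8-cell embryos, 3.45% to 5.13% and 1.85% to 11.2% in blastocyst-derived cells, and 4.77% to 10.7% in fibroblasts. ValAAC trna8133 held 60.0% to 71.4% of the valine reads in NT and 71.7% to 84.4% in IVF blastocysts, and 68.1% to 80.4% in NT and 85.8% to 91.6% in IVF 8-cell embryos. These ranges of NT and IVF do not overlap at either stage. The rows in this paragraph were picked after their values were seen, and no test was made.

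**Figure D4:**
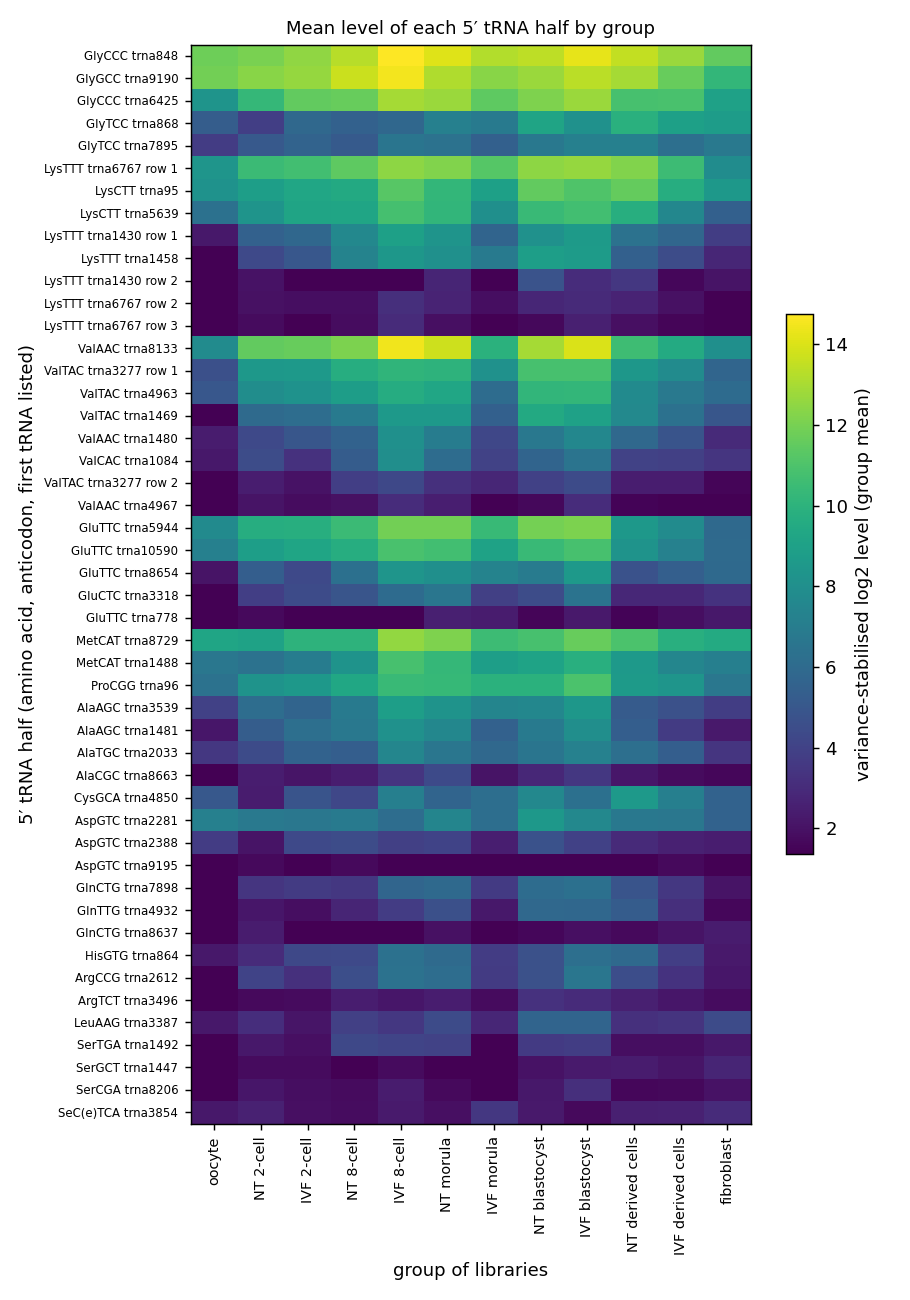
Mean variance-stabilised log2 level (colour) of each of the 48 5′ tRNA-halves (rows) in the 12 groups (columns). ValTAC trna1469 averages 9.47 in NT and 9.02 in IVF blastocysts and LysTTT trna1458 8.86 and 8.71, and both are at the lowest value of the table in oocytes.

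The table also lists short 5′ fragments, which end before the anticodon loop, so tRNA-halves can be set against all 5′ fragments of the same amino acid. For valine, tRNA-halves were 96.9% ± 1.02 of the 5′ fragment reads in NT and 97.9% ± 1.504 in IVF blastocysts, against 14.2% ± 8.23 in oocytes. For lysine they were 97.0% ± 0.778 in NT and 96.9% ± 1.29 in IVF blastocysts, against 20.8% ± 11.2 in oocytes. For glutamate they were 90.2% ± 1.38 and 91.3% ± 2.86, against 30.5% ± 13.5. Methionine gave 96.5% ± 1.38 and 97.1% ± 0.899, against 43.4% ± 30.1, and proline 89.7% ± 2.42 and 89.6% ± 2.32, against 53.9% ± 9.70. For these 5 amino acids no blastocyst library overlaps an oocyte library. In glycine they were 77.5% to 89.5% in NT and 84.4% to 88.2% in IVF blastocysts, within the 65.0% to 96.0% of oocytes (two-sided exact permutation p = 0.714 and 0.6). For the other 5 the exact permutation p was 0.0286 in NT, the smallest possible, with an adjusted p of 0.0686 over 12 tests, and 0.1 in IVF, the smallest possible, with an adjusted p of 0.12. With these numbers of libraries none of the 12 could have reached an adjusted p under 0.05, and the ratios were defined with the data already in view.

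Fibroblasts had the lowest ratio of the 12 groups over all amino acids together. For this ratio all 84 rows of short 5′ fragments were counted, not only those of the 15 amino acids with tRNA-halves. tRNA-halves were 8.54% ± 4.82 of the 5′ fragment reads in fibroblasts, against 48.3% ± 28.6 in oocytes. For glycine the fibroblast libraries held 16.3% to 25.4%, below every oocyte library. In blastocyst-derived cells the ratio over all amino acids was 79.3% to 92.0% in NT and 27.0% to 82.6% in IVF, and these ranges overlap. For valine it was 82.2% to 94.6% in NT and 13.3% to 76.0% in IVF, without overlap.

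**Figure D5:**
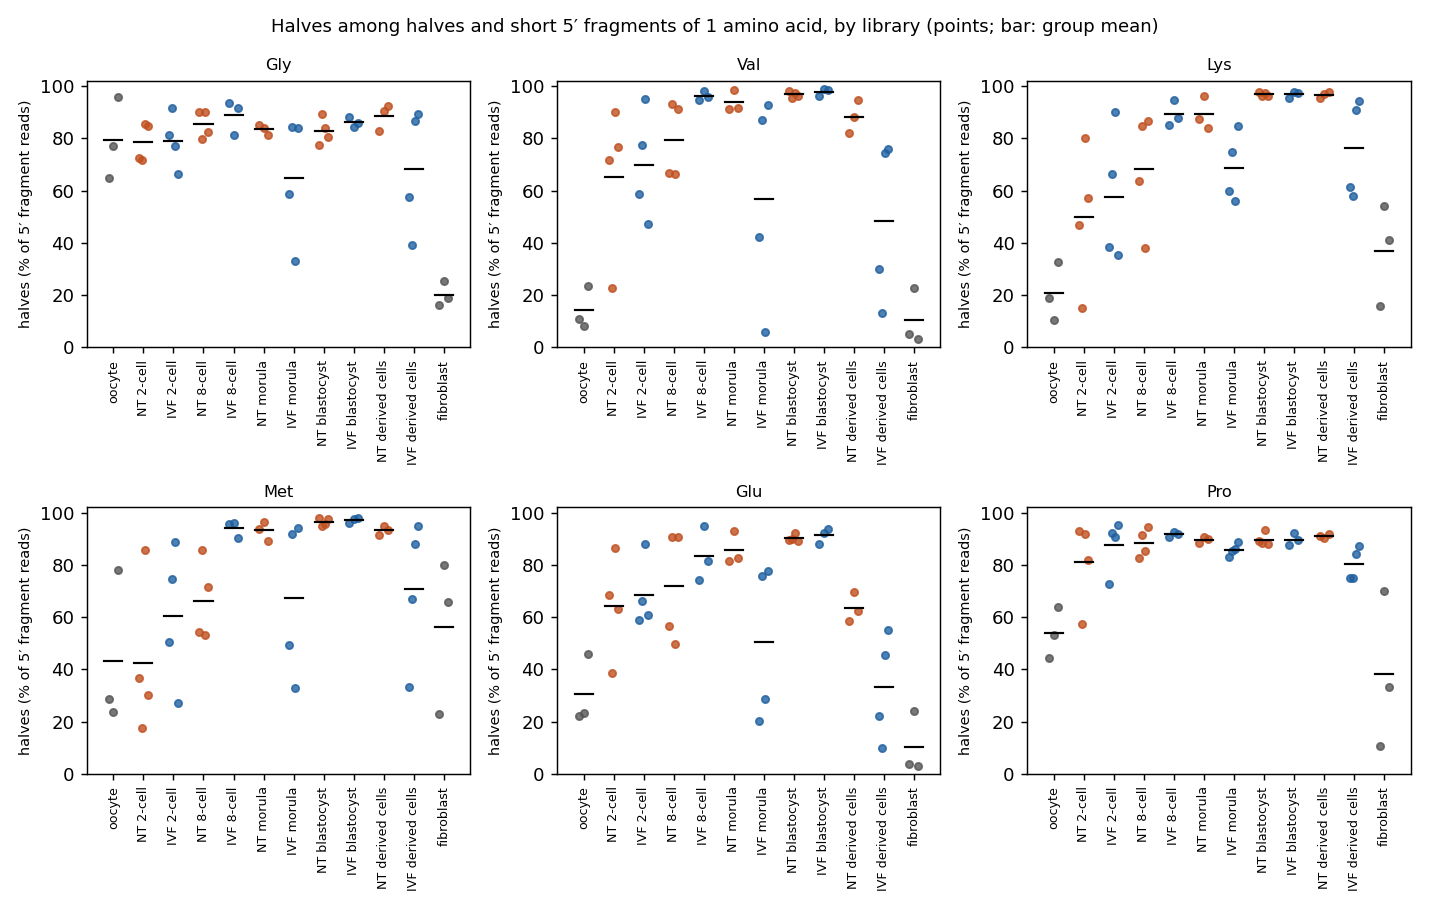
5′ tRNA-halves as a percentage of all 5′ fragment reads (tRNA-halves and short 5′ fragments) of the same amino acid, by library (points; the bar is the group mean; NT in orange, IVF in blue, others in grey), for 6 amino acids. Valine stands at 96.9% in NT and 97.9% in IVF blastocysts, against 14.2% in oocytes and 10.5% in fibroblasts, while glycine overlaps between blastocysts and oocytes.

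NT and IVF embryos were compared at each stage, and no 5′ tRNA-half passed in any of the 5 comparisons. At the 8-cell stage 0 of 47 were called (limma; 0.00831% of all rows higher and 0% lower), while 10 were lower and 0 higher in NT at an unadjusted p under 0.05, beside 1.68% of all rows lower and 6.4% higher. The median change was -1.18, beside 0.33 over all rows. CysGCA trna4850 had 15.2, 31.2, 7.31 and 8.58 normalised reads in NT 8-cell embryos and 439.6, 252 and 19.5 in IVF 8-cell embryos, and its lowest IVF library lies within the NT range (change -2.94 ± 0.87, limma, adjusted p = 0.346). ValCAC trna1084 had 30.4, 48.4, 36.6 and 23.8 in NT and 271, 379 and 154 in IVF, with no overlap (change -2.72 ± 0.90, limma, adjusted p = 0.4). GlnCTG trna7898 had a log2 change of -2.16 ± 0.79 (limma, adjusted p = 0.497). Fitted on these 7 libraries alone, 4 were called lower in NT, beside 0.0705% of all rows tested there, CysGCA and ValCAC among them (limma, adjusted p = 0.00794 and 0.0106).

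By share, valine made up 10.1% to 16.2% of the tRNA-half reads in NT and 21.3% to 23.1% in IVF 8-cell embryos, without overlap. The difference of -8.97 percentage points had a two-sided exact permutation p of 0.0286, the smallest that 35 splits allow, and an adjusted p of 0.429 over 30 tests of 6 amino acids in 5 comparisons. Methionine made up 3.01% ± 0.679 in NT and 8.02% ± 5.26 in IVF 8-cell embryos (exact permutation p = 0.0571, adjusted p = 0.429). 5′ tRNA-halves as a whole were 1.17% to 8.47% of listed reads in NT and 8.40% to 17.9% in IVF, and the ranges overlap.

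In morulae the medians stood the other way round. None of 47 was called (limma; 0% of all rows higher and 0% lower), 15 were higher and 1 lower in NT at an unadjusted p under 0.05, beside 9.85% of all rows higher and 0.307% lower. The median change was 1.29, beside 0.31 over all rows. SerTGA trna1492 had 21.1, 15.5 and 3.68 normalised reads in NT morulae and 0 in each IVF morula library (change 2.65 ± 0.67, limma, adjusted p = 0.245). A floor of 3 reads is 1.00, 12.5, 38.1 and 3.80 normalised reads in IVF replicates 1 to 4, so this change from 0 can be overstated. GlnTTG trna4932 had a log2 change of 2.41 ± 0.71 (limma, adjusted p = 0.245). ValTAC trna1469 had 161, 1206 and 258 in NT, and 21.1, 184, 0 and 284 in IVF replicates 1 to 4 (mean log2 levels 8.55 in NT and 5.45 in IVF, limma, adjusted p = 0.251). Without IVF morula replicate 2, 7 rows were called, and without replicate 4, 11, all higher in NT, beside 4.91% and 5.55% of all rows called higher. Without replicates 1 and 3, the libraries that stand apart, the count was 0, and ValTAC trna1469 had a log2 change of 0.68.

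At the 2-cell stage 0 of 47 were called (limma; 2.16% of all rows higher and 0.125% lower), with 1 higher and 3 lower in NT at an unadjusted p under 0.05, beside 14.2% of all rows higher and 2.28% lower. CysGCA trna4850 had 0, 0, 6.88 and 4.79 normalised reads in NT and 41.8, 18.9, 7.31 and 43.9 in IVF 2-cell embryos (change -2.46 ± 0.81, limma, adjusted p = 0.0782). In NT replicates 1 and 2, which hold the zeros, a floor of 3 reads is 16.6 and 20.0 normalised reads. Whether the groups overlap is therefore not known. AspGTC trna2388 had a log2 change of -2.24 ± 0.75 (limma, adjusted p = 0.0886) and GlyTCC trna868 of -1.999 ± 0.86 (adjusted p = 0.207). Without NT 2-cell replicate 3, or without replicate 4, 1 row was called lower in NT, a count given without the share of all rows called. In blastocysts 0 of 47 were called (limma; 0% of all rows higher and 0.00831% lower), with 1 higher and 3 lower in NT at an unadjusted p under 0.05, beside 0.199% of all rows higher and 0.415% lower. LysTTT trna1430 row 2 had 32.5, 17.5, 23.7 and 20.0 normalised reads in NT and 2.23, 11.7 and 1.75 in IVF blastocysts, with no overlap (change 1.72 ± 0.63, limma, adjusted p = 1). GluCTC trna3318 had a log2 change of -1.97 ± 0.90 and ValAAC trna4967 of -1.44 ± 0.60 (limma, adjusted p = 1 and 1).

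In blastocyst-derived cells 0 of 47 were called (limma; 0% of all rows higher and 0% lower), with 3 higher and 0 lower in NT at an unadjusted p under 0.05, beside 0.0914% of all rows higher and 0.183% lower. LysTTT trna1430 row 2 had 5.73, 5.99 and 9.57 normalised reads in NT and 0, 1.11, 0 and 0 in IVF derived cells, with no overlap. GlnTTG trna4932 had a log2 change of 2.08 ± 0.71 and HisGTG trna864 of 2.08 ± 0.97 (limma, adjusted p = 1 and 1). Proline made up 1.06% ± 0.287 in NT and 1.68% ± 0.272 in IVF derived cells, without overlap (exact permutation p = 0.0286, adjusted p = 0.429). Lysine made up 14.1% to 25.6% of the tRNA-half reads in NT and 11.8% to 13.9% in IVF blastocysts, also without overlap (exact permutation p = 0.0571, adjusted p = 0.429). None of the 30 share tests passed.

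The 8-cell stage, near which the bovine embryonic genome becomes active, was set against the 2-cell stage within each kind of embryo. In NT 0 of 47 were called (limma; 0.0332% of all rows higher and 0.465% lower), with 6 higher and 1 lower at an unadjusted p under 0.05, beside 3.08% of all rows higher and 7.58% lower. In IVF 1 was higher, ValCAC trna1084, and 0 lower (limma; 0.0498% of all rows higher and 0.0665% lower), with 20 higher and 0 lower at an unadjusted p under 0.05, beside 5.06% of all rows higher and 6.12% lower. ValCAC trna1084 had 271, 379 and 154 normalised reads in IVF 8-cell embryos and 15.7, 0, 57.0 and 0 in IVF 2-cell embryos, with no overlap (change 4.74 ± 0.90, limma, adjusted p = 0.0138). In NT the row had 30.4, 48.4, 36.6 and 23.8 in 8-cell embryos and 11.1, 26.7, 24.1 and 11.97 in 2-cell embryos. The difference of the steps, NT minus IVF, was -3.93 ± 1.23 for ValCAC trna1084 (limma, adjusted p = 0.204), and 0 of 47 rows passed (0% of all rows higher and 0.0581% lower), with 1 higher and 4 lower at an unadjusted p under 0.05, beside 2.92% of all rows higher and 5.71% lower.

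The call for ValCAC trna1084 in IVF was lost without 2-cell replicate 2 or 4 (limma, adjusted p = 0.0801 and 0.0654) and without 8-cell replicate 2 or 3 (limma, adjusted p = 0.134 and 0.066). Without 2-cell replicate 3, 8 rows were called, and without 8-cell replicate 4, 2. In NT 1 row was called without 2-cell replicate 3 and 3 without 2-cell replicate 4. The share of all rows called is not given for these counts, so they show nothing particular to 5′ tRNA-halves. The rows with the smallest p in NT were SerTGA trna1492, AspGTC trna2388 and LysTTT trna1458, with changes of 2.05, 2.43 and 3.03 (limma, adjusted p = 0.123, 0.136 and 0.16).

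Cells grown from IVF blastocysts held less of several 5′ tRNA-halves than the blastocysts. Of 47 rows 10 were lower and 0 higher (limma; 4.24% of all rows lower and 0.93% higher). All 10 had been called higher in IVF blastocysts than in oocytes, in a comparison with the same blastocyst libraries. AlaAGC trna1481 had 12.1, 1.96, 3.77 and 27.4 normalised reads in IVF derived cells and 73.6, 473 and 427 in IVF blastocysts (change -4.31 ± 0.98, limma, adjusted p = 0.00181). ValAAC trna8133 had 948, 621, 471 and 1019 in derived cells and 6184, 27926 and 24659 in blastocysts (change -4.46 ± 1.40, limma, adjusted p = 0.0425). LysTTT trna1458 had 8.70, 31.4, 14.5 and 23.1 in derived cells and 362, 571 and 341 in blastocysts (change -4.21 ± 1.06, limma, adjusted p = 0.00581). The groups do not overlap for any of these rows. GluTTC trna5944, AlaAGC trna3539 and GluCTC trna3318 changed by -4.27, -3.79 and -3.63, and the other 4, GluTTC trna10590, ArgCCG trna2612, GlnCTG trna7898 and GlnTTG trna4932, by -3.58, -3.26, -2.81 and -2.66.

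The count of calls in IVF was 2 without blastocyst replicate 3, 3 without blastocyst replicate 4, 5 without derived cell replicate 2, whose epithelial markers are at 0, and 6 without derived cell replicate 3. In NT 0 of 47 were called (limma; 1.88% of all rows lower and 0.988% higher), with 12 lower and 0 higher at an unadjusted p under 0.05, beside 6.34% of all rows lower and 1.87% higher. Fitted on the compared groups alone, 22 of 41 were lower and 2 higher in NT derived cells, beside 62.5% and 15.1% of the rows tested there, and 30 of 45 lower and 1 higher in IVF derived cells, beside 58.2% and 9.52%. With CPM of listed reads 5 were called in NT and 17 in IVF. The counts for left-out libraries and for CPM are given without the share of all rows called, so they cannot be set against it. LysTTT trna1458 had 38.4, 36.3 and 44.3 normalised reads in NT derived cells and 573, 324, 487 and 498 in NT blastocysts (change -3.39 ± 1.06, limma, adjusted p = 0.0638). LeuAAG trna3387 had a log2 change of -2.48 ± 0.82 and GluTTC trna5944 of -3.42 ± 1.21 (limma, adjusted p = 0.0884 and 0.139). The difference of the steps, NT minus IVF, passed for 0 of 47 rows (0% of all rows higher and 0% lower), with 4 higher and 0 lower at an unadjusted p under 0.05, beside 0.116% of all rows higher and 0.191% lower. Fibroblast marker CPM was higher in every derived cell library than in every blastocyst library, and its part in these differences was not tested.

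CysGCA trna4850 stood higher in derived cells, without a call. It had 615, 240.0 and 359.9 normalised reads in NT derived cells and 229, 168, 173 and 184 in NT blastocysts (change 0.99 ± 0.87, limma, adjusted p = 1), and 112, 82.1, 94.6 and 379.9 in IVF derived cells and 74.7, 70.3 and 76.9 in IVF blastocysts (change 0.83 ± 0.87, limma, adjusted p = 1). The libraries do not overlap in either kind.

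Fibroblasts, the cell type that supplied the nuclei for NT, were set against oocytes. Of 47 rows 6 were higher and 0 lower (limma; 1.36% of all rows higher and 40.4% lower). GlyTCC trna868 had 1713, 149 and 321 normalised reads in fibroblasts and 85.6, 19.6 and 24.6 in oocytes, with no overlap (change 3.45 ± 1.00, limma, adjusted p = 0.00305). GluTTC trna8654 had 344, 7.05 and 54.8 in fibroblasts and 0, 0 and 7.03 in oocytes (change 3.87 ± 1.10, limma, adjusted p = 0.00256). ValTAC trna1469 had 179, 4.07 and 14.8 in fibroblasts and 0 in oocytes (limma, adjusted p = 0.0042). Its fibroblast mean was 4.90-fold the oocyte floor of 13.4, which rests on replicate 1. Replicate 3 lay under that floor and replicate 4 close to it. GlyTCC trna7895, LeuAAG trna3387 and SerGCT trna1447 changed by 3.06, 2.19 and 1.36. SerGCT trna1447 was at 0 in every oocyte library, and its fibroblast mean did not exceed the oocyte floor.

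This result rested on fibroblast replicate 1, in which 89.2% of listed reads were tRNA-derived, against 46.4% and 56.8% in replicates 3 and 4. Without it 0 rows were called, and without oocyte replicate 3 the count was 3. The share of all rows called is not given for these counts. With CPM of tRNA-derived reads 4 rows were higher and 4 lower, beside 7.25% and 32.6% of the tRNA-derived rows. With CPM of listed reads 17 were higher, beside 3.01% of all rows, and with voom 34, beside 5.8%. LysTTT trna1458, with 7.57, 0 and 6.41 normalised reads in fibroblasts, and ValAAC trna8133, with 1125, 140.0 and 103, stood lower in every fibroblast library than in every blastocyst library.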

How the data were processed

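Per the submitters' processing notes, reads were trimmed with Trim Galore, a bovine genome (bosTau8, UMD3.1) was used and DESeq2 was run. The deposited table holds variance-stabilised log2 values made by the authors, 12345 sequences by 42 libraries, with a lowest value of 1.37. Inverting that transform gave whole reads for 100% of 188126 values (tolerance 0.01 reads), taking the smallest value as 2 reads, so absolute read numbers rest on that. The transform pulls low values together, which can understate the change of rare rows. A zero takes the lowest value at any depth of library, so changes from 0 in shallow libraries can instead be overstated. With rows at 0 in every oocyte library bounded, the median change against oocytes fell from 3.21 to 2.47 in NT blastocysts. In IVF blastocysts it fell from 3.48 to 2.91.

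limma 3.58.1 (R 4.3.3) was fitted to the deposited values with 12 groups, an intensity trend and 30 residual degrees of freedom, over the 12039 rows that exceed the table's minimum by 1 or more on the log2 scale in 3 or more libraries, with Benjamini-Hochberg adjustment at 0.05 and no minimum fold. Shares used recovered reads and two-sided exact permutation tests (Python 3.11.15, numpy 2.4.6, pandas 2.3.3, scipy 1.17.1). The scripts were tested on simulated data. Replicate numbers were not treated as pairs, as no comparison had every pair correlated above 0.1. For NT against IVF derived cells the correlations were 0.339, -0.087 and 0.466 for replicates 1, 3 and 4. Whether the numbers pair libraries is therefore not known. Alternatives were no filter, CPM scalings with a pseudocount of 1, voom, a replicate block, the compared groups alone, and each library left out.

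Rows named are the leading row of each amino acid, up to 6 called rows per direction and comparison by size of change (the 3 smallest p where none was called), and the ValCAC, CysGCA, MetCAT and ValTAC rows. Any other row named was chosen after its values were seen. The members and lists were chosen with earlier results of these data known. Sequences of the tRNA-halves were not used here.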

Additional observations from a re-analysis of the deposited data

Results flagged for a closer look

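Of 137 groups of values tested, 12 held a library far from the others of its group, where chance gives about 1 in 20. Only groups of 4 libraries were tested. Groups of 3, oocytes and fibroblasts among them, were too small and were not screened. 

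Among amino acid shares of the tRNA-half reads, glycine stood at 50.6% in NT blastocyst replicate 2, with the nearest library at 38.9%. Methionine stood at 6.61% in NT blastocyst replicate 4 (nearest 3.86%), and proline at 2.54% in NT blastocyst replicate 3 (nearest 1.49%). Proline also stood at 15.5% in IVF morula replicate 3 (nearest 2.37%), the library with 25119 listed reads. The share of 5′ tRNA-halves among listed reads was 5.41% in NT 2-cell replicate 3 (nearest 1.07%).

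Among log2 levels, AspGTC trna2281 was low in IVF morula replicate 1, at 4.91 (nearest 6.55). GluTTC trna5944 was low in IVF blastocyst-derived cell replicate 2, at 5.77 (nearest 8.47), and MetCAT trna8729 in IVF 2-cell replicate 4, at 8.04 (nearest 10.5). The other 4 values stood out because every other library of the group was at the lowest value of 1.37. They were LeuAAG trna3387 at 4.32 and SeC(e)TCA trna3854 at 3.61 in IVF 2-cell replicate 2, SeC(e)TCA trna3854 at 3.22 in NT 8-cell replicate 3, and SerTGA trna1492 at 3.57 in IVF 2-cell replicate 3.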

How the results depend on the processing

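Over 17 counts and tests, 227 of 260 alternatives stayed within 1.5 times the main count, 33 moved beyond it and 0 reversed. Most of the main counts were 0. For these, staying within 1.5 times means only that the count stayed at 0, and no reversal could be scored. The share tests carry no direction here, so they could not reverse either. Those of blastocysts against oocytes could not have passed in the main setting. Of 717 alternatives for 52 values of named rows, 647 kept their side of the threshold, 46 lost the call, 24 gained one and 0 reversed. The causes of these shifts were not tested. Counts in this section are given without the share of all rows called. They show how far a count moved and nothing particular to 5′ tRNA-halves.

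With CPM of listed reads the counts were 2 for NT against IVF morulae, 17 for IVF and 5 for NT blastocyst-derived cells against blastocysts, and 17 for fibroblasts against oocytes. With CPM of tRNA-derived reads they were 1 for NT against IVF 2-cell embryos, 0 for IVF 8-cell against 2-cell embryos and 3 for IVF derived cells against blastocysts. With voom they were 1 for NT against IVF derived cells, 1 for NT derived cells against blastocysts and 34 for fibroblasts against oocytes. Fitted on the compared groups alone they were 4 for NT against IVF 8-cell embryos, 7 for IVF and 1 for NT 8-cell against 2-cell embryos, and 31 (1 higher, 30 lower) for IVF and 24 (2 higher, 22 lower) for NT derived cells against blastocysts.

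Leaving out 1 library at a time gave 0 to 1 for NT against IVF 2-cell embryos, 0 to 11 for morulae, 0 to 8 for IVF and 0 to 3 for NT 8-cell against 2-cell embryos, 27 to 33 for IVF and 28 to 32 for NT blastocysts against oocytes, 2 to 9 for IVF derived cells against blastocysts, 0 to 6 for fibroblasts against oocytes, and 0 throughout for the other counts.

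With the replicate number as a block the counts were 33 for IVF and 32 for NT blastocysts against oocytes, 8 for IVF derived cells against blastocysts, 5 for fibroblasts against oocytes, 1 for IVF 8-cell against 2-cell embryos and 0 elsewhere. Whether the numbers pair the libraries is not known. Oocyte replicates 1 and 3, with 1058 and 1119 tRNA-half reads, limit what can be seen of rare rows.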
